A study of Mus musculus with 4 samples.

Results

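The genes described here are the cadherins and protocadherins of the mouse, calcium-dependent adhesion proteins that join the membranes of neighbouring cells. Members were chosen by symbol from the array annotation, as every gene named Pcdh, Cdh followed by a number, or Celsr1 to Celsr3, with at least 1 probe set annotated to that symbol alone. This gave 59 genes, read by 105 probe sets, of the 18193 genes on the array. Where a gene had several probe sets, the one with the highest mean over the 4 arrays stood for it and the others served as a check. Transcripts were measured on Affymetrix arrays in punches of the medial prefrontal cortex, labelled as prelimbic cortex, of male mice on postnatal day 90. One group of 2 arrays came from mice whose exposure to fluoxetine, an antidepressant that blocks the reuptake of serotonin, was prenatal, and the other 2 arrays came from untreated mice. Neither the strain nor the dose is given in the sources used here, and the labels do not tell a single mouse from a pool. The arrays are labelled biological duplicates, with nothing said of litters. Each p-value thus reflects only how far these 4 arrays spread, in the gene itself and in other genes of similar level. The number of arrays limits the precision.

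Cadherins bind through repeated extracellular domains, mostly to the same protein on the facing cell. Classical cadherins of types I and II carry a cytoplasmic tail that is anchored to actin by catenins, and in the brain they hold synapses together and sort neurons into layers and nuclei. Protocadherins lack the catenin-binding tail: the clustered alpha, beta and gamma genes give single neurons different surface identities, while the delta protocadherins are expressed singly in particular regions and layers and guide axons and dendrites. Celsr proteins are seven-pass cadherins of the planar cell polarity pathway, which orients growing axon tracts.

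Values are log2 intensities of 1 probe set, so they compare the same gene between arrays and not one gene with another. The labelled tissue was checked first. Of 6 markers of cortical excitatory neurons 5 were measured, and they lay between 8.47 and 13.9 on the arrays, against a median of 7.87 over the genes of the array. Of these 5, Neurod6 was higher past the unadjusted p of 0.05 used throughout and 4 did not pass, and the list summed, as the log2 of the summed intensities, to 14.29 and 14.23 with fluoxetine and to 14.28 and 14.24 without. Neurod6 read 11.29 and 11.11 with fluoxetine and 11.04 and 10.89 without, a difference of 0.24 (SE 0.08). Cdh2, Cdh8, Cdh11 and Pcdh7 had the same order of arrays. Emx1 went the other way, lower on both fluoxetine arrays with a difference of −0.12 (SE 0.07). Slc17a7, Tbr1 and Camk2a had overlapping groups, with differences of 0.01, 0.06 and −0.03. Some arrays stood apart in markers of neighbouring tissue, summed in the same way. Striatal neuron markers (6 of 8 measured, 1 lower) summed to 11.91 and 12.29 with fluoxetine and to 12.08 and 13.17 without, so that untreated replicate 2 was the highest. Choroid plexus and ependymal markers (5 of 5 measured, 1 lower) summed to 11.79 and 8.74 with fluoxetine and to 8.15 and 9.50 without, and fluoxetine replicate 1 was the highest. Ttr, the brightest of them, read 11.71 and 8.09 with fluoxetine and 6.67 and 8.97 without. Folr1 and Kl were also highest on fluoxetine replicate 1. Foxj1 and Ccdc153 were instead lower on both fluoxetine arrays and highest on untreated replicate 2. Astrocyte markers (5 of 5 measured, 2 higher) summed to 12.88 and 12.97 against 12.74 and 12.80, and meningeal markers (6 of 6 measured, 2 higher) to 10.75 and 10.83 against 10.68 and 10.75. Oligodendrocyte markers (7 of 8 measured, 3 lower) summed to 15.36 and 15.37 against 15.35 and 15.50. No marker was listed at 0. Of 24 probe sets for spiked poly-A controls, which are meant to be added equally to each RNA, 22 had a higher mean on the fluoxetine arrays, with a median log2 difference of 0.22. In a punch of tissue, fewer cells of a type and less RNA per cell cannot be told apart, and the part of these cells and controls in the differences between groups was not tested beyond leaving out each array.

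Cdh1, Cdh2, Cdh8, Cdh11 and Pcdh7 were higher with fluoxetine, and Cdh13 and Pcdh1 were lower, at an unadjusted p below 0.05 in the limma fit over all genes. None of the 59 members passed after Benjamini-Hochberg adjustment over the 18193 genes, where 0% of all genes passed, and the lowest adjusted p of a member was 0.696. The 5 higher members were 8.47% of the 59, against 3.45% of all genes, and the 2 lower members were 3.39%, against 3.51% of all genes. Together the 7 members made up 11.9%, against 6.96% of all genes. The median level of the array means 7.87 here, the median over genes of their mean level by 1 probe set each. Over all probe sets, the medians of single arrays were lower, 6.44 to 6.50. Among members above the median level of the array 5 of 25 passed, against 7.89% of all genes at such levels. The median log2 difference, fluoxetine minus untreated, was −0.00 over the 59 members and −0.02 over all genes, with 28 members above 0, 30 below and 1, Cdh4, at 0 (within 1e-06). Both fluoxetine arrays lay above both untreated arrays in 7 members, against 15.5% of all genes, and below them in 9, against 22.3% of all genes, while the groups overlapped in the other 43.

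**Figure D1:**
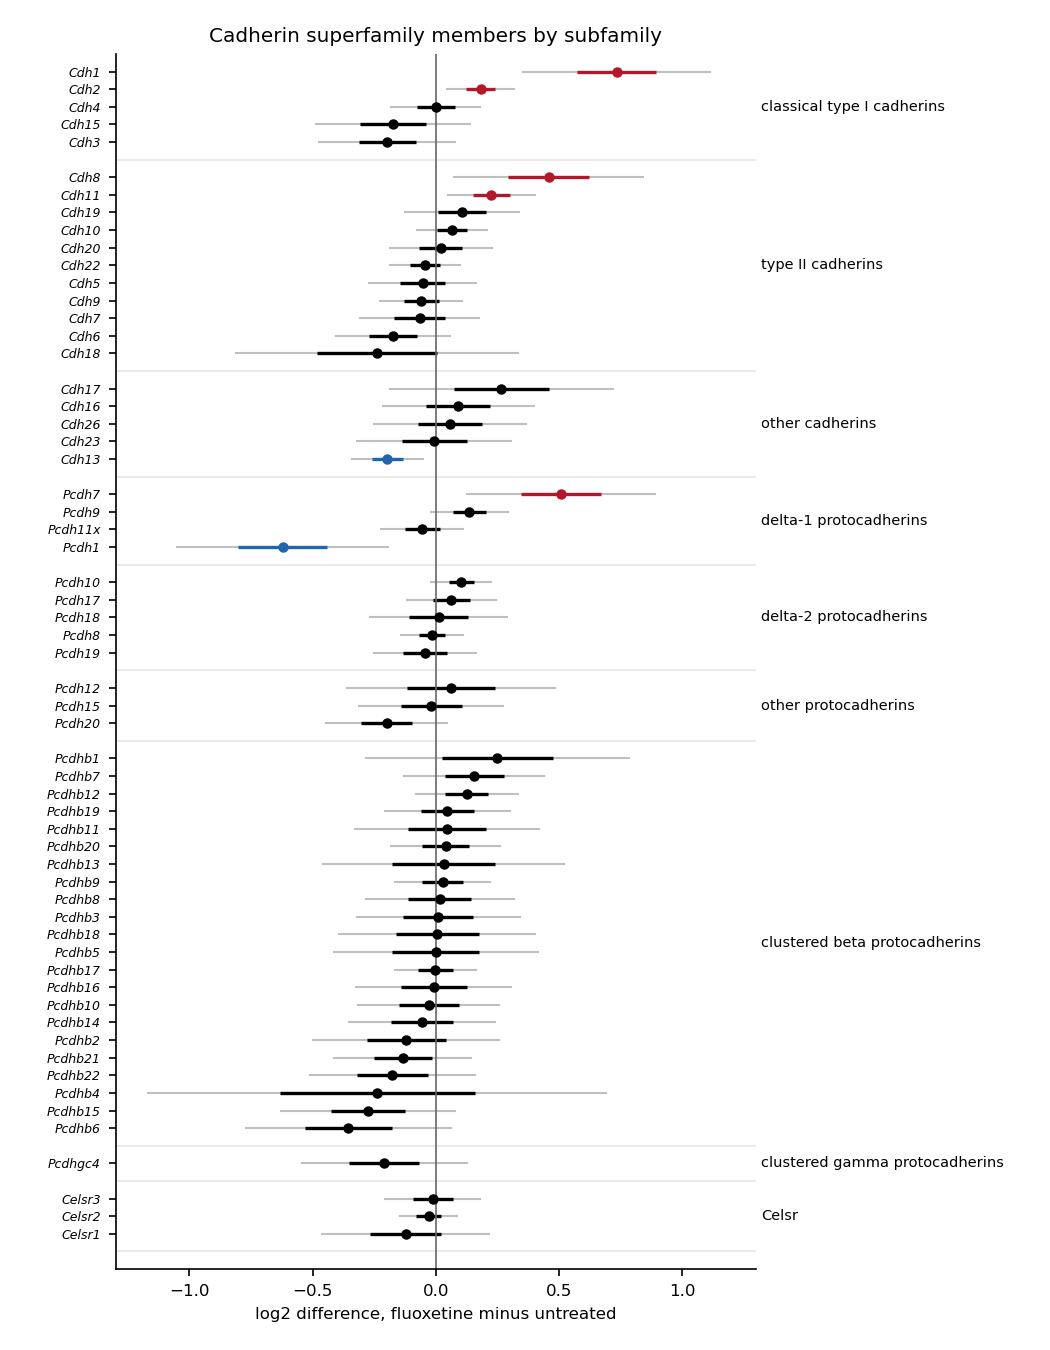
Log2 difference (fluoxetine minus untreated, horizontal axis) of each of the 59 members, grouped by subfamily. Points are differences, thick bars 1 moderated SE and thin grey bars 95% intervals; members at an unadjusted p below 0.05 are red where higher and blue where lower. The largest differences are those of Cdh1 (0.73), Pcdh1 (−0.62), Pcdh7 (0.51) and Cdh8 (0.46), and the 22 clustered beta genes all have intervals that include 0.

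Among the 5 type I cadherins, Cdh1 and Cdh2 were higher and the other 3 did not pass. Cdh1 encodes E-cadherin, the adhesion protein of epithelia. Its probe set (1448261_at, its single one) read 5.18 and 5.35 with fluoxetine and 4.41 and 4.66 without. Both fluoxetine arrays lay above both untreated arrays, and the gap was wider than the spread within either group. The log2 difference was 0.73 (SE 0.16, 95% interval 0.36 to 1.11, n = 2 and 2), or 1.66-fold, the largest among the 59 members. All 4 readings lay below the median level of the array, and the untreated ones lay near the lower quartiles of their arrays (4.57 and 4.47). Fluoxetine replicate 2 gave the highest reading, and without fluoxetine replicate 1 the difference was 0.82. The part of choroid plexus and ependymal cells, which are epithelial, in this difference was not tested. Cdh1 was also the single one of the 7 members that stayed at an unadjusted p below 0.05 whichever array was left out, with differences from 0.61 to 0.86.

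Cdh2 encodes N-cadherin, the main classical cadherin of neurons, found on both sides of the synaptic cleft. It read 11.55 and 11.42 with fluoxetine and 11.33 and 11.28 without (probe set 1418815_at). Both fluoxetine arrays were above both untreated ones, by a log2 difference of 0.18 (SE 0.06, 95% interval 0.05 to 0.32), or 1.13-fold. Without fluoxetine replicate 1 it was 0.11 and without untreated replicate 2 it was 0.15, past the threshold in neither. The other probe set of Cdh2, 1449244_at, read 9.97 and 10.00 against 10.00 and 10.02, a difference of −0.03 (SE 0.06), so that the 2 probe sets of this gene disagreed in sign.

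The remaining type I genes did not pass. Cdh4, or R-cadherin, read 8.17 and 8.18 in each group, and the 95% interval of the difference was −0.18 to 0.18. Cdh3, or P-cadherin, read 6.48 and 6.64 with fluoxetine and 6.80 and 6.71 without. Its groups did not overlap, and the difference was −0.20 (SE 0.12). Cdh15, the cadherin of muscle, differed by −0.17 (SE 0.13) with overlapping groups.

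**Figure D2:**
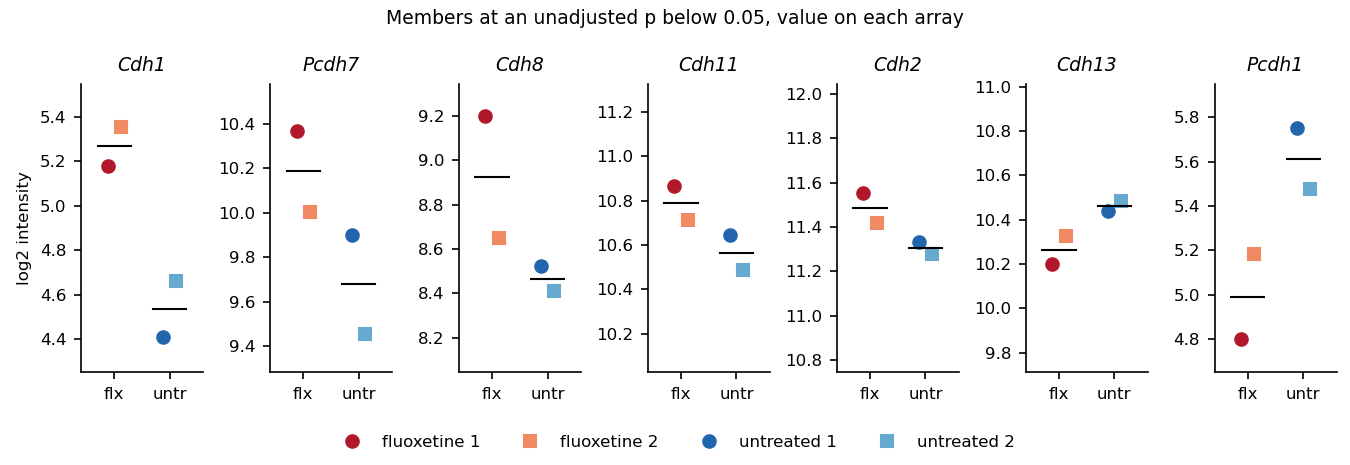
Log2 intensity (vertical axis, each panel spanning the same number of log2 units) of the 7 members at an unadjusted p below 0.05 on each array; flx is fluoxetine, untr is untreated, circles are replicate 1, squares replicate 2 and black lines group means. In Cdh8 fluoxetine replicate 1 stands at 9.20 while fluoxetine replicate 2 (8.65) lies close to untreated replicate 1 (8.52).

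Type II cadherins are the group whose members mark cortical layers, nuclei and circuits in combination. Of 11 measured, 2 passed the unadjusted threshold, Cdh8 and Cdh11, both higher. The median difference over the 11 was −0.04. Cdh8, which marks subsets of neurons in cortex and striatum, read 9.20 and 8.65 with fluoxetine and 8.52 and 8.41 without (probe set 1422052_at). Fluoxetine replicate 1 stood far above the other 3 arrays, and fluoxetine replicate 2 stood only just above the untreated arrays. The log2 difference was 0.46 (SE 0.16, 95% interval 0.07 to 0.84, adjusted p = 0.704), or 1.37-fold. Without fluoxetine replicate 1 it was 0.18 and without untreated replicate 1, 0.52, past the threshold in neither. It was 0.40 without untreated replicate 2, the array with the most striatal marker signal and the lowest Cdh8 reading, and again did not pass. The other 2 probe sets of Cdh8 differed by 0.17 (SE 0.12) and 0.08 (SE 0.18), both with overlapping groups.

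Cdh11, a cadherin of mesenchymal cells that is also found in neurons, read 10.87 and 10.71 with fluoxetine and 10.64 and 10.49 without (probe set 1450757_at). The groups did not overlap, but their nearest arrays stood closer together than the 2 arrays of either group. The log2 difference was 0.23 (SE 0.07, 95% interval 0.05 to 0.40), or 1.17-fold. The other probe set of Cdh11 read 9.08 and 8.73 against 8.91 and 8.98, a difference of −0.04 (SE 0.12), with overlapping groups. Beside it, 2 of the 6 meningeal markers, from another mesenchymal tissue, were higher (Col1a2 and Dcn). Col1a1 and Slc6a13 were lower on both fluoxetine arrays without passing, by differences of −0.12 and −0.15, and Lum and Igf2 had overlapping groups. The part of meningeal tissue in the result was not tested. Without fluoxetine replicate 1 the difference of the chosen probe set was 0.15, and likewise 0.15 without untreated replicate 2, past the threshold in neither.

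The other 9 type II genes did not pass. Cdh9, which takes part in forming mossy fibre synapses, read 9.47 and 9.46 with fluoxetine and 9.45 and 9.60 without, a difference of −0.06 (SE 0.07). Cdh10 read 10.26 and 10.17 against 10.11 and 10.19, a difference of 0.07 (95% interval −0.08 to 0.21). Cdh22 read 9.83 and 9.86 against 9.84 and 9.93, a difference of −0.04 (95% interval −0.18 to 0.10). In all 3 the groups overlapped. Cdh6, which marks neuronal subsets in several brain regions, read 8.19 and 8.11 against 8.21 and 8.43, barely lower on both fluoxetine arrays, with a difference of −0.17 (SE 0.10). It passed the unadjusted threshold without untreated replicate 1 (−0.28). Cdh20 read 7.58 and 7.63 against 7.58 and 7.59, a difference of 0.02 (SE 0.09), and Cdh7 and Cdh19 differed by −0.07 and 0.11. Cdh18 was near the floor of the array, at 0.50 and 1.12 with fluoxetine and 1.12 and 0.98 without, with a difference of −0.24 (SE 0.24) and overlapping groups. Cdh5, or VE-cadherin, the adhesion protein of endothelium, read 7.35 and 7.42 with fluoxetine and 7.42 and 7.45 without, a difference of −0.05 (SE 0.09, 95% interval −0.27 to 0.17). Beside it, 0 of 6 endothelial markers passed.

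Promoters are shown for Cdh8, Pcdh7, Pcdh9 and Pcdh17, the 4 members that had both an entry in the RefSeq promoter table (assembly GRCm38.p6) and a probe set higher with fluoxetine at an unadjusted p below 0.05. Each sequence is the 250 bases that end just before the transcription start, and capitals mark the GC box, GGGCGG, or its reverse complement. Cdh8 is at chr8:99416472-99416721 on the minus strand and Pcdh7 at chr5:57717831-57718080 on the plus strand. Pcdh9 is at chr14:93890680-93890929 on the minus strand, by the first of its 2 entries, and Pcdh17 at chr14:84443313-84443562 on the plus strand.
Cdh8: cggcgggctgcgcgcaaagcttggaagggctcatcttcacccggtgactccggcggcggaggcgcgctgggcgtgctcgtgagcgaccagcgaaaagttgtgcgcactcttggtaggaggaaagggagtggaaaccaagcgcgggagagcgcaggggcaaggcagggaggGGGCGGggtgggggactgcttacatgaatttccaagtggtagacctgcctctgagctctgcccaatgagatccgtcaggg
Pcdh7: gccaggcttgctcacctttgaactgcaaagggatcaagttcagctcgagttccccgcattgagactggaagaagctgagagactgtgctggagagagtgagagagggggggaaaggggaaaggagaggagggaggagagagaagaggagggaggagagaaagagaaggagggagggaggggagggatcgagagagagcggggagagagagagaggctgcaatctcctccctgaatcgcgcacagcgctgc
Pcdh9: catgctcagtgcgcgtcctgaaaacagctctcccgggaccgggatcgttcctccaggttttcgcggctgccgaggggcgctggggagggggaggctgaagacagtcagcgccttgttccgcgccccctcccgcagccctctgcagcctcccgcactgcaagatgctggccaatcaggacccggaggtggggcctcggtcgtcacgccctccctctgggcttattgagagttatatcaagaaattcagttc
Pcdh17: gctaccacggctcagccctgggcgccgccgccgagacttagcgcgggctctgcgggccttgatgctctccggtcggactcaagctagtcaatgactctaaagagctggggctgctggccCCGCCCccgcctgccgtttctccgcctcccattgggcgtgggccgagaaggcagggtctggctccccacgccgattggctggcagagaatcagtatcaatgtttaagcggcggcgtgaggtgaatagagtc
These windows were 64.4%, 58.4%, 63.6% and 64.8% G and C, against a median of 52.4% over the 32851 promoters of the table. The 27 windows of genes named by the member symbol rule, these 4 among them, had a median of 58.4%. The 4 windows held 20, 7, 18 and 21 CpG pairs, against a median of 6 over all promoters and 11 over those 27. On either strand, the GC box lay in the Cdh8 and Pcdh17 windows, in 32.7% of all windows and in 37% of the 27. CCAAT lay in the Cdh8, Pcdh9 and Pcdh17 windows, in 33.8% of all and in 55.6% of the 27. The cyclic AMP response element TGACGTCA (1.55% of all windows), the AP-1 site TGANTCA (6.75%), the E-boxes CACGTG (6.02%) and CACCTG (17.2%) and the TATA box TATAAA (12.4%) were in none of the 4. No motif of this set contains another, and a match of letters is a description, not a bound site. Of the 59 members 22 had an entry; Cdh1, Cdh2, Cdh11, Cdh13 and Pcdh1 are named only.

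Delta-1 protocadherins held the largest differences among the protocadherins, in opposite directions. Pcdh7, whose protein binds itself across cells and also inhibits a protein phosphatase, read 10.37 and 10.00 with fluoxetine and 9.90 and 9.46 without (probe set 1456214_at). Each group spread widely, and the nearest arrays of the 2 groups stood close together, without overlap. The log2 difference was 0.51 (SE 0.16, 95% interval 0.13 to 0.89), or 1.42-fold. It was 0.33 without fluoxetine replicate 1 and 0.29 without untreated replicate 2, past the threshold in neither. Untreated replicate 2, the array with the most striatal marker signal, gave the lowest reading. The other probe sets of Pcdh7 differed by 0.28 (SE 0.17) and −0.05 (SE 0.23), with overlapping groups in both.

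Pcdh1, a protocadherin of epithelia and neurons, read 4.80 and 5.18 with fluoxetine and 5.75 and 5.47 without (probe set 1452294_at, its single one). Both fluoxetine arrays lay below both untreated arrays. The log2 difference was −0.62 (SE 0.18, 95% interval −1.05 to −0.19), or 1.54-fold lower. All 4 readings were below the median of the array. Without fluoxetine replicate 1 the difference was −0.43 and without untreated replicate 1 −0.48, past the threshold in neither.

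Pcdh9, a delta-1 gene expressed in neurons and glia of the cortex, passed by some of its probe sets and not by others. The probe set with the highest mean read 11.60 and 11.46 with fluoxetine and 11.33 and 11.46 without, with overlapping groups and a difference of 0.14 (SE 0.07). The second, 1442659_at, read 10.55 and 10.23 against 9.99 and 9.77, a difference of 0.51 (SE 0.12). The third, 1458269_at, read 6.83 and 6.47 against 6.10 and 5.97, a difference of 0.62 (SE 0.15). In both of these the groups did not overlap and the unadjusted p was below 0.05 in a fit over all probe sets with 1 symbol, with adjusted p values of 0.353 and 0.373. Fluoxetine replicate 1 was the highest array in all 3 probe sets. Pcdh11x, the X-linked member of this group, differed by −0.06 (SE 0.07), at 9.06 and 8.99 against 9.03 and 9.13.

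Delta-2 protocadherins did not pass in any of 5 genes, with differences from −0.04 to 0.10 by their chosen probe sets. Pcdh10, which recruits the actin-regulating WAVE complex and takes part in synapse elimination, read 10.97 and 10.89 with fluoxetine and 10.81 and 10.85 without. Both fluoxetine arrays were higher, by a difference of 0.10 (SE 0.05, 95% interval −0.02 to 0.23). Its 6 probe sets ran from −0.08 to 0.38, with 5 above 0 and 0 past the threshold. Pcdh8, also called arcadlin, an activity-regulated gene that affects N-cadherin at synapses, read 10.40 and 10.35 against 10.42 and 10.36, a difference of −0.01 (SE 0.05), and its other probe set gave a difference of 0.09 (SE 0.09).

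Pcdh17, which gathers at synapses of corticobasal circuits, read 10.09 and 9.91 with fluoxetine and 9.89 and 9.98 without by its chosen probe set, overlapping groups with a difference of 0.06 (SE 0.08). Its other probe set, 1436920_at, read 10.38 and 9.95 with fluoxetine and 9.84 and 9.68 without. That reading gave a difference of 0.41 (SE 0.13) at an unadjusted p below 0.05, and again fluoxetine replicate 1 stood highest. Pcdh19, an X-linked gene whose mutation causes epilepsy in heterozygous females, read 9.94 and 9.70 against 9.92 and 9.80, a difference of −0.04 (SE 0.09). Pcdh18 read 7.43 and 7.20 against 7.38 and 7.23, a difference of 0.01 (SE 0.12). In both genes the groups overlapped.

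**Figure D3:**
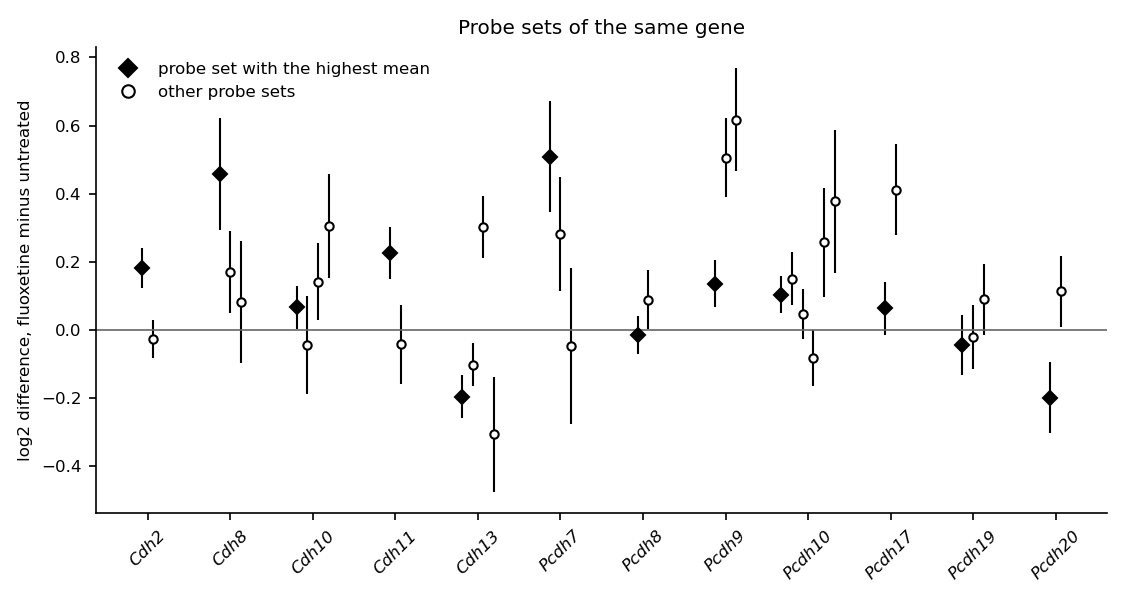
Log2 difference (fluoxetine minus untreated, vertical axis) of every single-symbol probe set of 12 members with several probe sets; filled diamonds are the probe set with the highest mean, open circles the others, and bars 1 moderated SE. For Cdh13 one probe set lies at 0.30 and the other 3 between −0.31 and −0.10, and for Pcdh9 all 3 lie above 0.

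Cdh13 encodes T-cadherin, which is held to the membrane by a lipid anchor and has no cytoplasmic tail, and it marks deep-layer neurons and vessels. The chosen probe set, 1423551_at, read 10.20 and 10.33 with fluoxetine and 10.44 and 10.48 without. Both fluoxetine arrays were lower, by a log2 difference of −0.20 (SE 0.06, 95% interval −0.34 to −0.05), or 1.15-fold lower. It was −0.13 without fluoxetine replicate 1 and −0.17 without untreated replicate 2, past the threshold in neither. Another probe set read 9.42 and 9.48 against 9.56 and 9.54, a difference of −0.10 (SE 0.06), and a dim one differed by −0.31 (SE 0.17). The remaining one, 1454015_a_at, went the other way. It read 8.04 and 8.16 with fluoxetine and 7.85 and 7.75 without, a difference of 0.30 (SE 0.09) at an unadjusted p below 0.05. None of the 4 probe sets had overlapping groups, and 3 were lower and 1 higher on both fluoxetine arrays. Of the other atypical cadherins, Cdh16 of kidney, Cdh17 of intestine, Cdh26 and Cdh23 did not pass, with differences from −0.01 to 0.27. Cdh23 and its partner Pcdh15, which together form the tip links of hair cells, had overlapping groups. Cdh23 read 5.38 and 5.33 against 5.38 and 5.34, a difference of −0.01 (SE 0.13). Pcdh15 read 5.78 and 5.79 against 5.78 and 5.82, a difference of −0.02 (SE 0.12).

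Clustered protocadherins were represented by 22 beta genes and by Pcdhgc4, and 0 of these 23 passed. Among the beta genes the median difference was 0.00, with 12 above and 10 below 0. Pcdhb6 and Pcdhb15 had the largest differences among those whose groups did not overlap. Pcdhb6 read 3.43 on both fluoxetine arrays and 3.94 and 3.63 on the untreated ones, a difference of −0.36 (SE 0.18). Pcdhb15 read 5.99 and 6.33 against 6.50 and 6.36, a difference of −0.27 (SE 0.15), and its other probe set gave −0.26 (SE 0.16). Of the 22 beta genes, 17 lay at or below the median level of the array. The 5 above it had differences of −0.00 for Pcdhb17, 0.03 for Pcdhb9, 0.04 for Pcdhb20, 0.13 for Pcdhb12 and 0.16 for Pcdhb7, and the groups were separate only for Pcdhb12. Beta genes are near-identical in places, so part of the signal of one may come from another. Pcdhgc4, a gamma isoform needed for the survival of interneurons, read 5.29 and 5.52 with fluoxetine and 5.60 and 5.63 without. Both fluoxetine arrays were lower and the difference was −0.21 (SE 0.14, 95% interval −0.54 to 0.13).

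The alpha cluster could not be read gene by gene, since its isoforms share their 3′ exons. A further 6 probe sets were annotated to 9 or 14 alpha genes at once and were not counted among the members. The brightest read 11.94 and 11.92 with fluoxetine and 12.04 and 12.02 without, a difference of −0.10 (SE 0.04). Another read 10.83 and 10.75 against 10.68 and 10.62, a difference of 0.14 (SE 0.06), and the dimmest of these 3 read 9.27 and 9.03 against 8.69 and 8.76, a difference of 0.43 (SE 0.09). The groups did not overlap in any of these 3, each annotated to 14 alpha genes, and the direction differed between them. The last 2 passed an unadjusted p of 0.05, with adjusted p values of 0.506 and 0.351. The other 3 probe sets, annotated to 9 alpha genes, differed by 0.20, 0.14 and 0.08 and did not pass.

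Of the remaining protocadherins, Pcdh20 read 8.05 and 8.30 with fluoxetine and 8.32 and 8.43 without, a difference of −0.20 (SE 0.10). Both fluoxetine arrays were lower, one of them only just. Its other probe set was higher on both fluoxetine arrays, by 0.11 (SE 0.10). Pcdh12, a protocadherin of endothelium, read 5.02 and 5.42 against 5.26 and 5.05, a difference of 0.06 (SE 0.18). The Celsr genes had overlapping groups in all 3 cases. Celsr2 read 11.17 and 11.14 with fluoxetine and 11.22 and 11.15 without, a difference of −0.03 with a narrow 95% interval of −0.15 to 0.09. Celsr3, which guides the large forebrain axon tracts, read 8.05 and 8.13 against 8.09 and 8.12, a difference of −0.01 (95% interval −0.20 to 0.18). Celsr1 read 5.87 and 6.07 against 5.97 and 6.21, a difference of −0.12 (SE 0.14).

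The counts moved with single arrays. Without fluoxetine replicate 1, 1 member was higher and 1 lower past the unadjusted threshold (2.03% of all genes), and of the 7 members Cdh1 remained, with Pcdhb4 as the lower one. Without untreated replicate 2, 2 were higher and 2 lower (8.57% of all genes), and Cdh1 and Pcdh1 remained, joined by Pcdh9 and Pcdhb6. Without fluoxetine replicate 2, 6 were higher and 4 lower (6.19% of all genes), all 7 among them, together with Pcdh9, Pcdh20 and Pcdhb15. Without untreated replicate 1, 4 were higher and 3 lower (9.43% of all genes), and Cdh8 and Pcdh1 were lost while Cdh6 and Cdh15 were added. Leaving out an array leaves 1 in a group, whose spread is then taken to be like that of the other group. No difference of the 7 changed sign in these fits. Fluoxetine replicate 1 was the highest of the 4 arrays in 11 of the 25 members above the median level of the array, or 44%, against 33.1% of all genes at such levels, and in Cdh8, Pcdh7, Cdh11 and Cdh2 in particular.

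**Figure D4:**
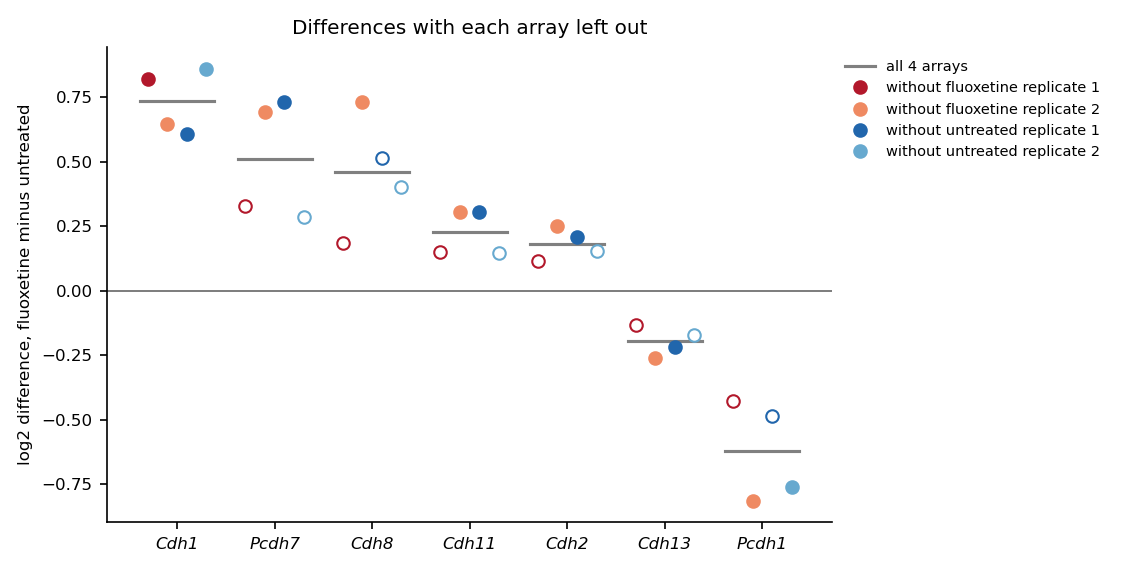
Log2 difference (fluoxetine minus untreated, vertical axis) of the 7 members with all 4 arrays (grey line) and with each array left out (points); filled points have an unadjusted p below 0.05 and open ones do not. Every point keeps the sign of its grey line, Cdh1 is filled in all 4 cases, and the points without fluoxetine replicate 1 are open for the other 6.

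Of the 28 members with several probe sets, 22 had differences of both signs. The other 6 had 1 sign (Cdh8, Pcdh9, Pcdh17, Celsr2, Pcdhb15 and Pcdh15), with differences within 1e-06 of 0, as in 1 of the 3 probe sets of Pcdh15, counted as neither. Of all 105 member probe sets 9 were higher and 2 lower past the unadjusted threshold, or 10.5%, against 9.45% of all probe sets with 1 symbol. These are repeated readings of the same genes and not independent of each other.

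The proteins that work with cadherins inside and beside the cell were examined as 6 lists, 80 genes in all, of which 76 were measured. Of the 76, Abi1 and Prickle1 were higher and Jup and Dnmt3b lower past the same unadjusted threshold. These 4 were 5.26% of the 76, below the 6.96% of all genes that passed, and the median difference was 0.00. Among 14 catenins and junction partners, Jup, or plakoglobin, was lower and 13 did not pass: it read 7.93 and 7.88 with fluoxetine and 8.11 and 8.10 without, a difference of −0.20 (SE 0.08). Beta-catenin itself, Ctnnb1, differed by 0.01 (SE 0.03), alpha-catenin of neurons, Ctnna2, by 0.13 (SE 0.08) and delta-catenin, Ctnnd2, by −0.00 (SE 0.06). Among 12 measured genes of protocadherin signalling and the WAVE complex, Abi1, a subunit of that complex, was higher and 11 did not pass. Abi1 read 11.74 and 11.68 against 11.55 and 11.54, a difference of 0.16 (SE 0.05).

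Of 10 planar polarity partners of the Celsr proteins, Prickle1 was higher and 9 did not pass: it read 11.50 and 11.46 with fluoxetine and 11.33 and 11.33 without, a difference of 0.15 (SE 0.04). Of 16 regulators of the clustered genes, the DNA methyltransferase Dnmt3b was lower and 15 did not pass. Dnmt3b read 5.48 and 5.62 against 6.04 and 5.84, a difference of −0.40 (SE 0.14), below the median level of the array. Ctcf, whose protein loops enhancers to the clustered promoters, differed by 0.04 (SE 0.07), and Rad21, a cohesin subunit, by 0.08 (SE 0.06). None of 10 measured proteases and processing genes passed. Adam10, which cuts N-cadherin and gamma protocadherins at the membrane, differed by −0.00 (SE 0.04). The last list held other cadherin superfamily genes and genes that work with them, and none of its 14 measured genes passed either. Its median was −0.01, with differences from −0.28 for Dsp to 0.08 for Fjx1, which are not cadherins themselves.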

How the data were processed

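The authors deposited 1 log2 intensity for each probe set and array. RMA, affy and limma are named, without versions, per the submitters' processing notes, and no build is given there. That the scale is log2 follows from its range, −0.08 to 15.14. Of 45101 probe sets, 64 were array controls, 34945 had 1 symbol in the platform annotation and were used, 932 had several and 9160 had none. All 105 member probe sets matched a RefSeq gene by Entrez number. Fluoxetine was compared with untreated with limma 3.58.1 in R 4.3.3 (lmFit, eBayes with an intensity trend; 2 residual and 5.15 prior degrees of freedom), two-sided, with no filter on low values, and adjusted by Benjamini-Hochberg over 18193 genes; other probe sets were fitted among all with 1 symbol. An exact permutation test of 2 against 2 cannot give p below 0.333. SEs are moderated ones. Replicate numbers follow accession order and pair nothing. On simulated data for this comparison (18193 genes, 20 draws) the fit called 72.4% of genes changed 1.5-fold and 23.7% of those changed 1.2-fold at an adjusted p below 0.05. The simulated noise was independent and normal, of the fitted size, without differences that many genes share on an array. Each draw also held genes changed 2-fold and 3-fold, which eases the adjusted threshold for smaller changes. In the measured data no gene passed it. The shares found in measured data may therefore be lower. Members and lists were chosen with earlier results of these data known. Named members were those at an unadjusted p below 0.05, up to 2 per subfamily with the largest difference among those with separate groups, and a fixed set of 35 genes, of which 5 had no single-symbol probe set and were not analysed here; from the partner lists, up to 3 per list with the smallest p. Other named members and partners, and Pcdh9 and Pcdh17 by their other probe sets, were picked after values were seen, as was the choice of promoters and motifs. Alternatives covered normalization, probe set choice, the trend, a level filter and leaving out each array.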

Additional observations from a re-analysis of the deposited data

How the results depend on the processing

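The member counts were 5 higher and 2 lower, and the median log2 difference was −0.0013. With the mean of a gene's probe sets 3 were higher and 1 lower (8.56% of all genes passed), with the most variable probe set 7 were higher and 1 lower (9.73%), without the intensity trend 1 was higher and 2 lower (7.17%), and among genes above the median level 4 were higher and 1 lower (8.04%). Without single arrays, 1 to 6 were higher and 1 to 4 lower. The median was 0.035 with array medians subtracted, 0.020 with the most variable probe set and −0.021 to 0.0094 without single arrays. A further quantile normalization kept all 7 members and added Cdh6, while 9.26% of all genes passed. Subtracting array medians kept all 7 and added Pcdh9, while 7.02% of all genes passed. Cdh1 and Pcdh1, with 1 probe set each, were the members of the 7 kept with the mean of probe sets and without the trend.

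Among the members named by rule, signs turned as follows, with differences within 1e-06 of 0 taken as neither sign; the cause was not tested. By another probe set the log2 differences were Cdh2 −0.027, Cdh3 0.057, Cdh5 0.21, Cdh6 0.0025, Cdh10 −0.044, Cdh11 −0.042, Cdh13 0.30, Cdh23 0.18, Pcdh7 −0.048, Pcdh8 0.088, Pcdh10 −0.082, Pcdh11x 0.12, Pcdh12 −0.087, Pcdh18 −0.043 and −0.20, Pcdh19 0.090 and Pcdh20 0.11. The other members with probe sets of both signs were Cdh7 (0.11 by a probe set that turned), Pcdhb4 (0.0064), Pcdhb14 (0.18), Pcdhb16 (0.041), Pcdhb21 (0.0057) and Cdh4, whose chosen probe set was at 0 and whose others were at 0.0089 and −0.32. Choosing the most variable probe set gave, of these values, those of Cdh3, Cdh5, Cdh23, Pcdh8, Pcdh11x and Pcdh18 (−0.20). By the mean of probe sets they were Cdh5 0.077, Cdh23 0.088, Pcdh8 0.037, Pcdh11x 0.032, Pcdh18 −0.078 and Pcdh19 0.0083. With array medians subtracted they were Cdh23 0.030, Celsr2 0.0068, Celsr3 0.025, Pcdh8 0.021 and Pcdh15 0.018. After a further quantile normalization they were Cdh23 0.055, Pcdh15 0.036 and Pcdh18 −0.0093. Leaving out single arrays gave −0.14 to 0.017 for Cdh9, −0.55 to 0.068 for Cdh18, −0.0042 to 0.044 for Cdh20, −0.088 to 0.0019 for Cdh22, −0.034 to 0.022 for Cdh23 and −0.068 to 0.0094 for Celsr2. It also gave −0.056 to 0.033 for Celsr3, −0.044 to 0.014 for Pcdh8, −0.14 to 0.26 for Pcdh12, −0.040 to 0.0040 for Pcdh15, −0.028 to 0.15 for Pcdh17, −0.10 to 0.13 for Pcdh18 and −0.16 to 0.073 for Pcdh19.

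No paired analysis was possible because the labels give the groups no shared replicate numbers. With 2 arrays a group, a difference of 1.2-fold is often missed after adjustment, and Cdh1 did not pass adjustment at 1.66-fold. Members that did not pass are therefore not shown to be unchanged. Dim members, among them Cdh18 and most beta genes, lie at or below the median level of the array. An exact value is repeated on a pair of arrays in 4 members, Cdh18, Cdh19, Pcdhb6 and Pcdhb18. For Pcdhb6 the pair is the 2 fluoxetine arrays. Without untreated replicate 2, only that pair gives the gene's own spread, which is 0.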
